A study of Mus musculus with 9 samples.

Results

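The 10 genes described here carry the insulin signal into brain cells and bring glucose into them. They are the ligand gene Igf1, the receptor genes Insr and Igf1r, the receptor substrate genes Irs1 and Irs2, the transcription factor gene Foxo1, the glucose transporter genes Slc2a1, Slc2a3 and Slc2a4, and the hexokinase gene Hk1. They were chosen by name from the 53465 genes of the deposited tables, and all 10 passed the filter on low counts that left 18501 genes. Whole brains of male C57BL/6 mice, 7 weeks old at the start, were sequenced as 9 libraries, with 3 mice in each of 3 groups. CON mice received saline. DNP mice, the model of diabetic neuropathic pain, ate a diet with 60% fat for 4 weeks, then received streptozotocin at 50 mg/kg on 7 days and later saline. BAC mice had the same diet and streptozotocin and then 7 days of baclofen, which activates GABA-B receptors, at 8 mg/kg. Streptozotocin kills the insulin-secreting beta cells of the pancreas, and the diabetic mice had a fasting blood glucose of at least 16.7 mmol/L. DNP and BAC mice had also been selected for lowered pain thresholds 4 weeks after streptozotocin. No group received baclofen without diabetes.

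Insulin and IGF-1 bind a pair of related receptor tyrosine kinases, which phosphorylate the substrates IRS1 and IRS2. These start the PI3K and AKT cascade, and AKT in turn keeps FOXO factors out of the nucleus and signals to mTORC1 and GSK3. Brain glucose uptake does not depend mainly on insulin: GLUT1 (Slc2a1) carries glucose across the blood-brain barrier and into astrocytes, GLUT3 (Slc2a3) carries it into neurons, and hexokinase 1 traps it inside the cell.

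Slc2a1 and Irs2 are among the genes on whose levels the libraries divide below, as is Igf1r. The RefSeq starts of Slc2a1 and Irs2 are shown. The Irs2 window lies outside the GENCODE coordinates given below for that gene (chr8:10984681-11008458), so the annotations differ on its start. The sequences are from RefSeq on GRCm38.p6 and hold 250 bases before and 50 after the annotated start. Capitals mark GC boxes (GGGCGG on either strand), which Sp1-family factors bind, and the letters ACGTG on either strand, the core shared by hypoxia response elements and the E-box CACGTG.
Slc2a1 (chr4:119108495-119108794, plus strand): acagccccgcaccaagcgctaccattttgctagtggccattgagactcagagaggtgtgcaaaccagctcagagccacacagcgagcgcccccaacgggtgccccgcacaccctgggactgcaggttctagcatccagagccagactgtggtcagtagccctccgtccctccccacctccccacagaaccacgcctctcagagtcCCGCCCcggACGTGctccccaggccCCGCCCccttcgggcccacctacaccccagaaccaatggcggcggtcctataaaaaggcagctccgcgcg
Irs2 (chr8:11008880-11009179, minus strand): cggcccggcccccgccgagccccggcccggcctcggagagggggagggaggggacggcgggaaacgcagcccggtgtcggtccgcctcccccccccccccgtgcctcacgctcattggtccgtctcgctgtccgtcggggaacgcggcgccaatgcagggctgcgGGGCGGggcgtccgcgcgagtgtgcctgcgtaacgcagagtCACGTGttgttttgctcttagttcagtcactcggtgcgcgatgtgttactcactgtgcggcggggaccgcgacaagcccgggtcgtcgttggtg
The Slc2a1 window was 65.3% G and C, held GC boxes starting at bases -45 and -20 and ACGTG at -36, and had the letters TATAAA at base 29. The Irs2 window was 72.0% G and C, with a GC box at -85 and CACGTG at -44. Of 32851 RefSeq promoters of this length, 35.7% held GGGCGG, 19.6% ACGTG, 7.15% CACGTG and 13.6% TATAAA. The FOXO letters GTAAACA occurred in 3.65% of all promoters and in none of the windows of the 7 genes matched (Foxo1, Hk1, Igf1, Igf1r, Irs1, Irs2 and Slc2a1). Insr, Slc2a3 and Slc2a4 were not matched. These matches describe letters only.

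The libraries held 13107382 to 16008129 counts on genes. They differed in the brain regions they contained. Hoxb8, which is expressed in the spinal cord and caudal hindbrain, had 28 counts in DNP 1, 848 in BAC 1 and 535 in BAC 3, and 0 or 1 in the other libraries. Gabra6, a gene of cerebellar granule cells, had 0 counts in DNP 2, DNP 3 and BAC 2 and from 42 to 4828 in the others. A count of 0 allows up to 3 counts. Slc6a5, a glycine transporter of brainstem and spinal cord neurons, had 2609 to 3974 counts in DNP 1, BAC 1 and BAC 3, from 13 to 397 in CON and 2 to 4 in DNP 2, DNP 3 and BAC 2. CON libraries thus held little Hoxb8 and some Slc6a5, and none lacked Gabra6. Markers of oligodendrocytes, the myelin-forming cells, were summed at 2111 to 2955 CPM in CON, 3539 to 8906 in DNP and 2850 to 9087 in BAC. In DNP versus CON, 6 of 6 were positive, with a median log2 fold change of 1.29. The libraries of 5 of the 6 did not overlap between these groups, 83.3% against 18.2% of all genes. In BAC versus CON this held for 1 of the 6, 16.7% against 13.4% of all genes. Globin and other blood cell markers were also higher in every diabetic library than in every CON library, for 5 of 5 genes. Among all genes, 6.95% did not overlap in that comparison. Mitochondrial genes took 4.34% to 5.36% of the counts in CON and 5.94% to 7.23% in the diabetic libraries. A lower level in such tissue may be fewer cells of a type or less RNA per cell, and these cannot be told apart.

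Levels below are CPM, counts scaled to the library total after TMM normalisation, given in the order of replicates 1, 2 and 3. FPKM, which also divides by transcript length, is used where genes are compared with each other. Differences are log2 fold changes from the quasi-likelihood test of edgeR, with adjusted p values (Benjamini-Hochberg) over all 18501 genes, and 0.05 was the threshold. None of the 10 genes passed it in any comparison, and neither did any other gene, so the share called was 0.0% throughout. In DNP versus CON, 1 of the 10 genes (Slc2a1) had an unadjusted p under 0.05, against 11.2% of all genes. The CPM of 2 of the 10 genes did not overlap between the groups, near the 18.2% of all genes. In BAC versus DNP, 1 gene (Slc2a1) had an unadjusted p under 0.05, against 2.37% of all genes, and none was free of overlap, against 6.79%. In BAC versus CON, Igf1r alone met both conditions, against 7.76% and 13.4% of all genes. In all 6 diabetic libraries versus CON, Igf1r alone again met both, against 11.8% and 6.95%. DESeq2 called none of the 10 genes. Over the 10 genes, the median log2 fold change was -0.22 in DNP versus CON, where the median of all genes was 0.01. The 3 comparisons with CON share the same CON libraries.

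**Figure D1:**
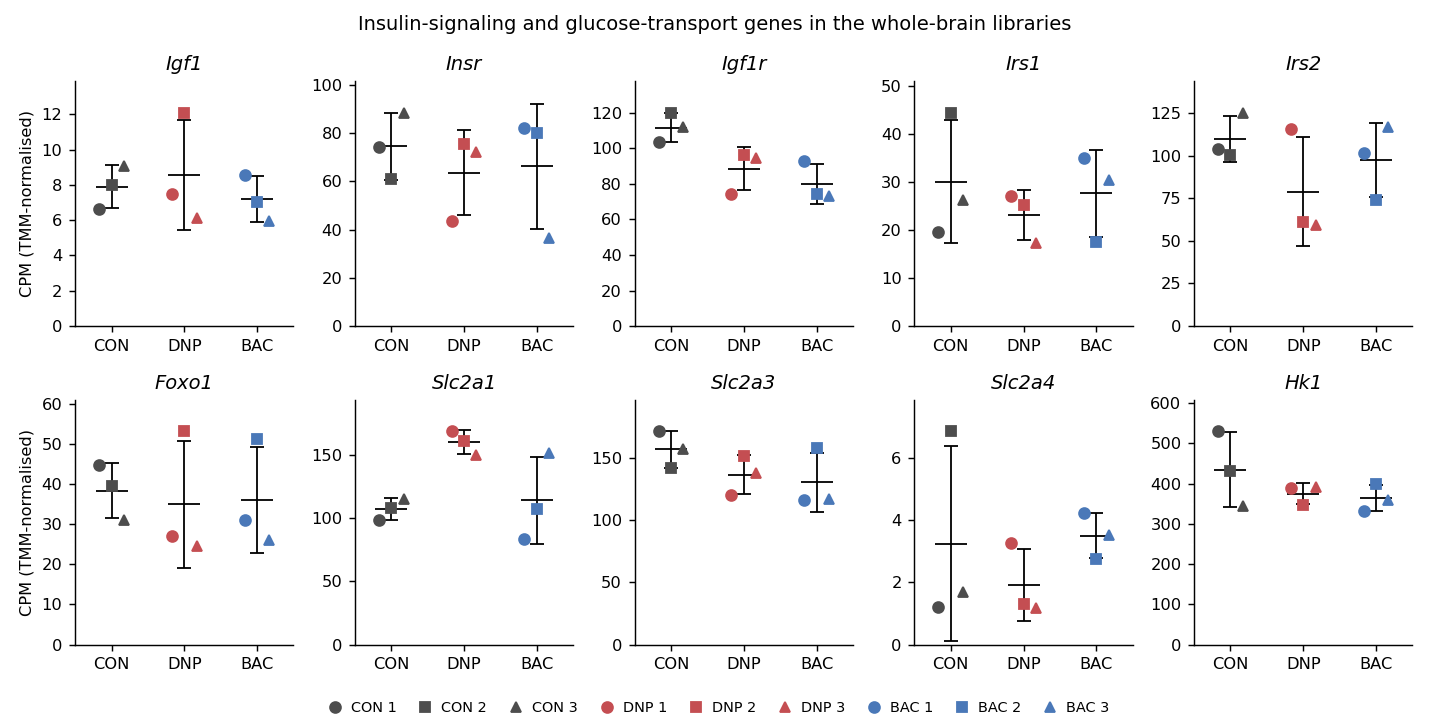
CPM (TMM-normalised) of the 10 genes in each library, with 1 panel per gene and its own axis from 0. Points are mice (circle, square and triangle for replicates 1, 2 and 3), and horizontal bars with error bars are the mean and SD of 3 mice. Slc2a1 lies between 149 and 168 in DNP, above every CON library, and Igf1r lies below every CON library in all 6 diabetic mice.

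Slc2a1 (chr4:119108711-119137983, plus strand, GRCm38) encodes GLUT1, the transporter of the blood-brain barrier. It stood at 98.0, 107 and 115 CPM in CON, at 168, 161 and 149 in DNP and at 83.2, 107 and 151 in BAC. Every DNP library was above every CON library, whereas BAC spread over both ranges, with BAC 3 at the level of DNP and BAC 1 and BAC 2 near CON. The fitted level in DNP was 1.49 times that in CON, with a 95% confidence interval of 1.07 to 2.08 (log2 fold change 0.58, SE 0.21, edgeR adjusted p = 0.383). The difference was between 0.52 and 0.64 under the 17 alternatives tried, none of which passed the adjusted threshold. With scores of the cerebellar and brainstem markers as covariates it was 0.52, with a wider SE of 0.37 (edgeR adjusted p = 0.552).

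From DNP to BAC, Slc2a1 differed by -0.49 on the log2 scale (SE 0.21, edgeR adjusted p = 0.998). The value was -0.74 without BAC 3 and -0.30 without BAC 1, so 1 mouse moved it by more than 1.5 times. Between BAC and CON the difference was 0.09 (SE 0.21, edgeR adjusted p = 0.926), with an interval of the fold from 0.766 to 1.48. All 6 diabetic libraries against CON gave 0.34 (SE 0.18, edgeR adjusted p = 0.503), and 0.20 without BAC 3.

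Markers of endothelial cells, which hold much of the brain's GLUT1, were divided in DNP versus CON, where Slc2a1 was higher. From DNP to BAC most of them were lower, as Slc2a1 was. Of 9 such markers, 4 had a positive and 5 a negative log2 fold change in DNP versus CON, and their median was -0.11. Their summed level was 261 to 322 CPM in CON, 243 to 319 in DNP and 210 to 238 in BAC. Between BAC and DNP, 8 of the 9 were negative, with a median of -0.31. Mfsd2a, a lipid transporter of the barrier, was the 1 endothelial marker without overlap in DNP versus CON, 11.1% of the list against 18.2% of all genes. Its level was 14.1, 11.3 and 13.3 CPM in CON and 38.0, 22.3 and 15.2 in DNP. In BAC versus CON, 6 of the 9 did not overlap, 66.7% against 13.4% of all genes, with Mfsd2a higher and 5 markers lower in BAC. Among astrocyte markers, 6 of 7 were negative in DNP versus CON. The part of these cells in the Slc2a1 values was not tested.

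Slc2a3 (chr6:122727809-122801640, minus strand) encodes GLUT3, the neuronal transporter. Its level was 171, 142 and 158 CPM in CON, 120, 152 and 138 in DNP and 117, 158 and 117 in BAC. The groups overlapped, and the log2 fold change was -0.20 in DNP versus CON (SE 0.17, edgeR adjusted p = 0.696) and -0.07 in BAC versus DNP (SE 0.17, edgeR adjusted p = 0.998). The lowest levels were in DNP 1, BAC 1 and BAC 3, the libraries with the most Hoxb8. The same 3 libraries also had low neuronal marker scores, of -0.185, -0.408 and -0.401 (mean log2 deviation from the mean of the 9 libraries). The markers of this score were divided. Slc17a7 was at 409, 276 and 158 CPM there, below every other library. Tubb3, in contrast, was highest in DNP 1 (655 CPM) and next in BAC 3 (522 CPM). Summed oligodendrocyte markers of these 3 libraries were high, at 8906, 6704 and 9087 CPM, although DNP 3, where Slc2a3 stood at 138 CPM, had 6723. Over the 9 libraries, in which gene and markers share the mix of tissue, log2 CPM of Slc2a3 had a Pearson's r of 0.922 with the neuronal and -0.864 with the oligodendrocyte score. With the score of forebrain markers r was 0.872, and with that of brainstem and spinal cord markers -0.884. The difference of Slc2a3 in DNP versus CON with region scores as covariates was -0.33 (edgeR adjusted p = 0.425).

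Per length, Slc2a1 had the highest mean of the glucose transporters in each group, at 18.95 ± 1.89 FPKM (SD, n = 3) in the CON mice, 29.1 ± 1.60 in the DNP mice and 21.1 ± 6.41 in the BAC mice. Slc2a3 stood at 13.97, 12.5 and 12.1 FPKM on average. The ratio of Slc2a1 to Slc2a3, taken within a library and so free of its normalisation, was 1.14, 1.502 and 1.45 in CON and 2.78, 2.11 and 2.15 in DNP. In BAC it was 1.42, 1.35 and 2.57. Every DNP ratio was above every CON ratio, and BAC again split, with BAC 3 among the DNP values. Slc2a1 made up 31.6% ± 4.78 of the summed FPKM of the 11 facilitative transporters in CON, 43.6% ± 4.18 in DNP and 36.7% ± 8.79 in BAC. DNP 1 had 28 counts of Hoxb8, and DNP 2 and DNP 3 had 0 of Gabra6, unlike any CON library. The part of tissue mix in these ratios was not tested.

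**Figure D2:**
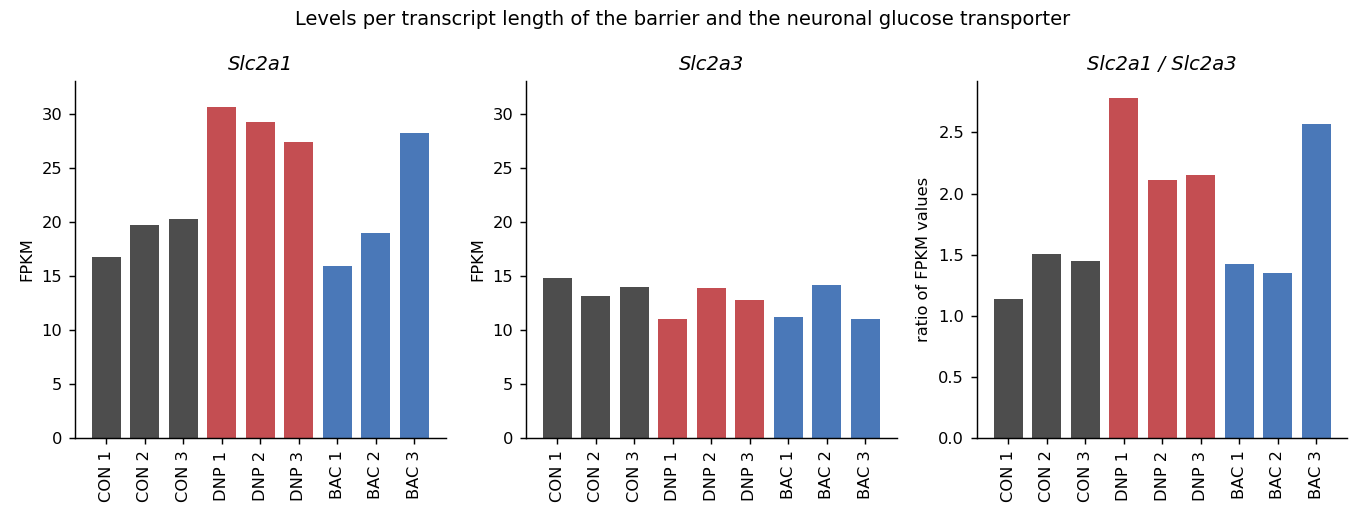
FPKM of Slc2a1 and of Slc2a3 on a common axis, and their ratio, in each of the 9 libraries. Bars are single mice, grey for CON, red for DNP and blue for BAC. The ratio is 2.11 to 2.78 in DNP and 1.14 to 1.502 in CON, while BAC 1 and BAC 2 lie at 1.42 and 1.35 and BAC 3 at 2.57.

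Slc2a4 (chr11:69942539-69948188, minus strand) encodes GLUT4, the transporter that insulin moves to the surface of muscle and fat cells. In brain it was scarce, at 0.178 to 1.10 FPKM, 0.276% to 2.01% of the transporter sum. Its counts were 18, 96 and 24 in CON, 45, 19 and 18 in DNP and 58, 40 and 56 in BAC. The highest value, in CON 2, belonged to the library with the highest cerebellar marker score. DNP versus CON gave a log2 fold change of -0.76 (SE 0.68, edgeR adjusted p = 0.719) and 0.40 without CON 2, so that 1 library set the direction. With region scores as covariates it was 1.10 (edgeR adjusted p = 0.529). From DNP to BAC the difference was 0.87 (SE 0.68, edgeR adjusted p = 0.998), with an interval of the fold from 0.627 to 5.35 at this depth.

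Of the other transporters, Slc2a13, which carries myo-inositol with protons, was at 7.10 to 18.2 FPKM and was above Slc2a1 in 1 library, CON 1 (18.2 against 16.8 FPKM). Slc2a2 was at or near 0 and was not tested. None of the 10 transporters tested passed the adjusted threshold in edgeR in any comparison, and DNP versus CON gave 3 positive and 7 negative differences. In BAC versus DNP, Slc2a9 and Slc2a10 were higher and Slc2a6 lower in every BAC than in every DNP library, 30.0% of the list against 6.79% of all genes. Slc2a10 was at 2.75, 2.05 and 1.31 CPM in DNP and 3.85, 3.04 and 3.97 in BAC (log2 fold change 0.83, SE 0.39, edgeR adjusted p = 0.998).

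Hk1 (chr10:62268855-62379908, minus strand), the main brain hexokinase, was measured with the largest counts of the set, from 4583 to 7984. Its level was 529.6, 430.3 and 344 CPM in CON, 388, 346 and 393 in DNP and 333, 399 and 359.8 in BAC. CON spread more widely than the diabetic groups, and CON 3 lay within them. Against CON, DNP differed by a log2 fold change of -0.21 (SE 0.18, edgeR adjusted p = 0.701), and -0.04 without CON 1. The difference was -0.48 with region scores as covariates (edgeR adjusted p = 0.443), and for all diabetic libraries it went from -0.23 to -0.49. Hk1 took 89.0%, 91.1% and 91.9% of the hexokinase FPKM in CON, DNP and BAC. Hk2, the insulin-responsive form, was at 4.18, 18.9 and 8.08 CPM in CON and 5.07, 5.39 and 2.69 in DNP (log2 fold change -1.24, SE 0.60, edgeR adjusted p = 0.475), and its difference was 0.56 with region scores as covariates.

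Insr (chr8:3122061-3279617, minus strand) encodes the insulin receptor. It stood at 74.3, 60.9 and 88.4 CPM in CON, 43.4, 75.3 and 72.3 in DNP and 82.3, 80.1 and 36.4 in BAC. A single low library in each diabetic group, DNP 1 and BAC 3, made most of the difference. Between DNP and CON the log2 fold change was -0.23 (SE 0.34, edgeR adjusted p = 0.85) and -0.01 without DNP 1. The fit with region scores as covariates gave -0.06. Insr differed by 0.06 in BAC versus DNP (SE 0.34, edgeR adjusted p = 0.998), with an interval of the fold from 0.612 to 1.77, and 0.34 with region scores as covariates.

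Igf1r (chr7:67952827-68233668, plus strand) encodes the IGF-1 receptor. It was at 104, 120.0 and 112 CPM in CON, 74.5, 96.5 and 94.9 in DNP and 93.2, 74.4 and 73.1 in BAC. All 6 diabetic libraries were below all 3 CON libraries, at 84.4 ± 11.5 CPM (SD, n = 6) against 111.8 ± 8.25 (SD, n = 3). For the diabetic libraries together the log2 fold change was -0.41 (SE 0.13, edgeR adjusted p = 0.344), a fold of 0.754 with a 95% confidence interval of 0.610 to 0.934. For DNP alone it was -0.33 (SE 0.16, edgeR adjusted p = 0.465) and for BAC alone -0.48 (SE 0.16, edgeR adjusted p = 0.628), whereas BAC versus DNP gave -0.14 (SE 0.16, edgeR adjusted p = 0.998).

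Igf1r was below CON in both kinds of diabetic library. Against CON, the libraries with more than 1 count of Hoxb8 (DNP 1, BAC 1 and BAC 3) gave -0.47 (edgeR adjusted p = 0.121) and those with none (DNP 2, DNP 3 and BAC 2) -0.33 (edgeR adjusted p = 0.38). With the cerebellar and brainstem scores as covariates the difference for all diabetic libraries was -0.12 (SE 0.22, edgeR adjusted p = 0.844). The part of tissue mix in the Igf1r values was not tested.

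Both receptor genes lay at like levels per length, with Insr at 4.76 and Igf1r at 5.76 FPKM on average in CON. The ratio of Insr to Igf1r was 0.894, 0.632 and 0.983 in CON and ranged from 0.620 to 1.34 in the diabetic libraries, so the groups overlapped. Igf1 (chr10:87858265-87937042, plus strand), which encodes IGF-1, was far lower than either, at 0.468 to 0.920 FPKM. It had 6.63, 7.98 and 9.06 CPM in CON, 7.46, 12.1 and 6.11 in DNP and 8.57, 7.04 and 5.98 in BAC. DNP 2 was the highest library, and without it the log2 fold change in DNP versus CON went from 0.12 (SE 0.29, edgeR adjusted p = 0.923) to -0.23. Fitted with region scores as covariates it was 0.44. The insulin genes Ins1 and Ins2 had 0 to 4 counts in each library and were not tested.

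Irs1 (chr1:82233101-82291416, minus strand) and Irs2 (chr8:10984681-11008458, minus strand) encode the docking proteins between the receptors and PI3K. Irs2 was the more abundant, with 3.27 to 7.71 times the FPKM of Irs1. Irs2 stood at 104, 100.3 and 125 CPM in CON, 116, 61.4 and 59.4 in DNP and 102, 74.3 and 117 in BAC. The 3 low libraries were DNP 2, DNP 3 and BAC 2, exactly those in which Gabra6 had 0 counts, whereas the other diabetic libraries lay within the CON range. CON 1, with 42 counts of Gabra6, nevertheless had Irs2 at 104 CPM.

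For Irs2 the log2 fold change was -0.48 in DNP versus CON (SE 0.29, edgeR adjusted p = 0.557), and -0.86 without DNP 1. From DNP to BAC it was 0.31 (SE 0.28, edgeR adjusted p = 0.998), and 0.70 without DNP 1. Against CON, DNP 1, BAC 1 and BAC 3 gave 0.02 (edgeR adjusted p = 0.943), whereas DNP 2, DNP 3 and BAC 2 gave -0.75 (edgeR adjusted p = 0.264). With the cerebellar and brainstem scores as covariates, the difference was -0.80 in DNP versus CON (edgeR adjusted p = 0.353) and 0.05 in BAC versus DNP (edgeR adjusted p = 1.0). For all diabetic libraries it went from -0.32 to -0.78 (edgeR adjusted p = 0.367). The difference of Irs2 from CON was therefore larger with these scores in the fit, whereas that between BAC and DNP was smaller.

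Irs1 was at 19.6, 44.4 and 26.3 CPM in CON, 27.0, 25.3 and 17.3 in DNP and 35.0, 17.6 and 30.4 in BAC. Its highest libraries, CON 2 and BAC 1, were also those with the highest cerebellar marker scores (4.02 and 3.04). Its log2 fold change in DNP versus CON was -0.38 (SE 0.36, edgeR adjusted p = 0.739), 0.01 without CON 2 and 0.45 with region scores as covariates. Irs1 shares 30.9% of its exon bases with the gene model Gm9747, which had 0 counts in every library, and the libraries are not stranded, so reads of the pair cannot be told apart. The same holds for Foxo1 and Gm20402, which share 7.78% of the exon bases of Foxo1 and of which the second had 0 counts throughout.

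**Figure D3:**
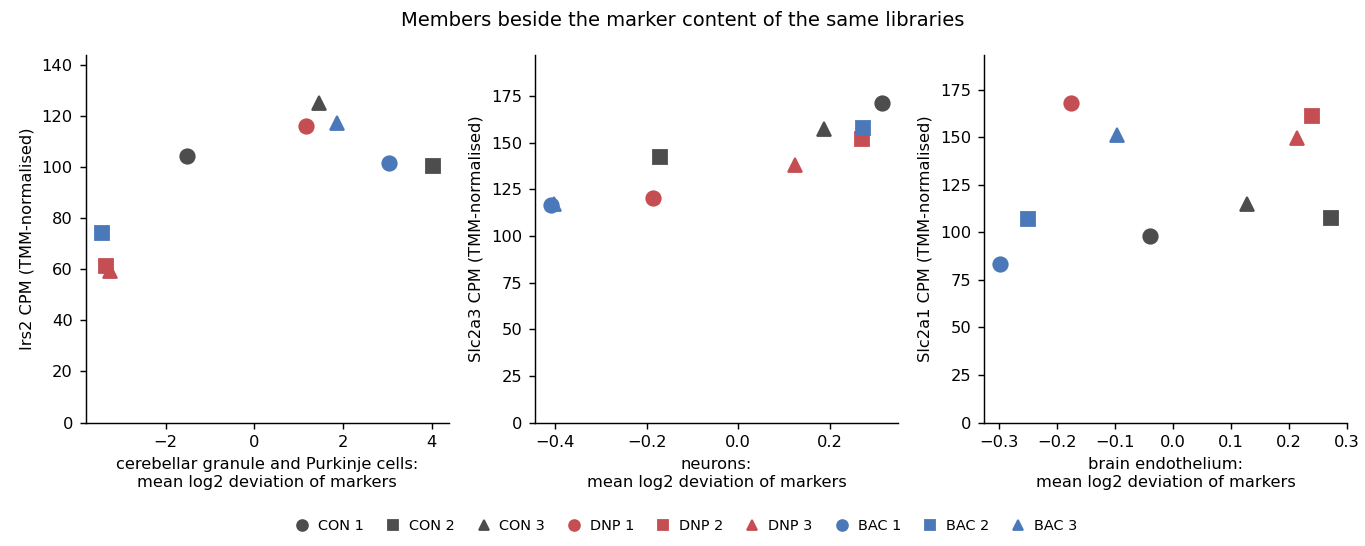
CPM of Irs2, Slc2a3 and Slc2a1 (vertical axes from 0) against the mean log2 deviation of the cerebellar, neuronal and brain endothelial marker lists in the same library. Colours are groups and shapes replicates. Irs2 is below 75 CPM in the 3 libraries with the lowest cerebellar scores, DNP 2, DNP 3 and BAC 2. Endothelial scores of replicates 1, 2 and 3 are -0.175, 0.24 and 0.215 in DNP and -0.297, -0.249 and -0.095 in BAC.

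Foxo1 (chr3:52268336-52353221, plus strand), which encodes a factor that AKT excludes from the nucleus, was at 44.7, 39.4 and 31.0 CPM in CON, 27.1, 53.1 and 24.6 in DNP and 30.9, 51.2 and 26.0 in BAC. DNP 2 and BAC 2 were the highest of the 9 libraries, and the groups overlapped. Its log2 fold change was -0.14 in DNP versus CON (SE 0.35, edgeR adjusted p = 0.927) and 0.04 in BAC versus DNP (SE 0.35, edgeR adjusted p = 0.999), and with region scores as covariates -0.20 and 0.29. The intervals of the fold, 0.522 to 1.59 and 0.591 to 1.80, include changes of the size seen in Slc2a1.

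**Figure D4:**
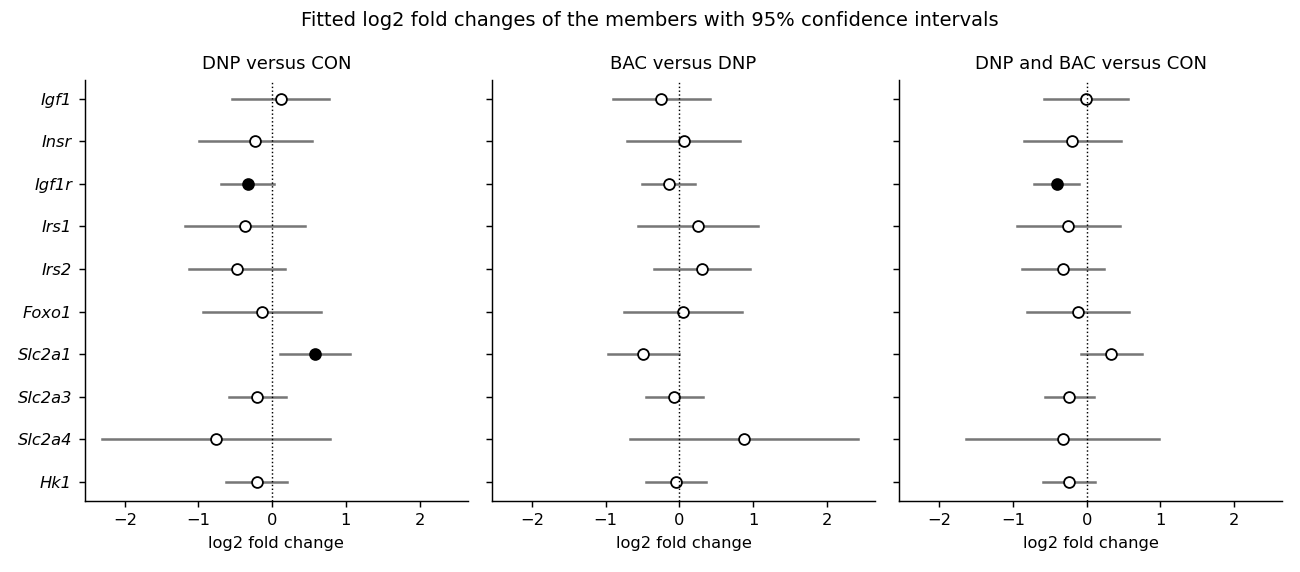
Log2 fold changes of the 10 genes in 3 comparisons, with 95% confidence intervals from edgeR. Filled points mark genes whose libraries do not overlap between the groups compared. Slc2a1 at 0.58 and Igf1r at -0.33 are the filled points in DNP versus CON, and Igf1r at -0.41 is the filled point for all diabetic libraries.

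The other genes of the pathway were examined as lists of 117 further genes, of which 112 were tested. None passed the adjusted threshold in edgeR in any of the comparisons. In DNP versus CON, 20 had an unadjusted p under 0.05, 17.9% against 11.2% of all genes, and the libraries of 30 did not overlap, 26.8% against 18.2%. DESeq2 called 6 of them, Foxo3, Igf2, Igfbp5, Igfbp7, Sesn3 and Txnip, 5.36% against 1.64% of all genes with a value. In BAC versus DNP, 5 had an unadjusted p under 0.05, 4.46% against 2.37% of all genes, and 11 did not overlap, 9.82% against 6.79%. There DESeq2 called none, where 0.0162% of all genes were called. In BAC versus CON, 11 had an unadjusted p under 0.05, 9.82% against 7.76%, 15 did not overlap, 13.4% as among all genes, and DESeq2 called 2, Sesn3 and Slc16a7 (0.471% of all genes). For all diabetic libraries versus CON, 20 had an unadjusted p under 0.05, 17.9% against 11.8%, 6 did not overlap, 5.36% against 6.95%, and DESeq2 called 4, Foxo3, Igfbp5, Irs4 and Sesn3 (1.69% of all genes).

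Of the 2 ligand genes and 7 binding protein genes tested, Igf2, Igfbp5 and Igfbp7 were the 3 without overlap in DNP versus CON, where 18.2% of all genes were without overlap. Igf2, which encodes a growth factor made by meninges and choroid plexus, was at 59.2, 68.0 and 75.4 CPM in CON, 26.7, 39.3 and 43.7 in DNP and 56.4, 47.2 and 60.4 in BAC. Every DNP library was below every CON and every BAC library. The log2 fold change was -0.89 in DNP versus CON (SE 0.20, edgeR adjusted p = 0.294, DESeq2 adjusted p = 0.0177) and 0.58 in BAC versus DNP (SE 0.20, edgeR adjusted p = 0.998). Markers of meningeal fibroblasts moved in the same way: 6 of 6 were negative in DNP versus CON and 6 of 6 positive in BAC versus DNP, and their summed level was 59.8 to 77.6 CPM in CON, 29.95 to 45.2 in DNP and 55.7 to 86.7 in BAC. Of 6 choroid plexus markers, 5 were negative in DNP versus CON and 5 positive in BAC versus DNP. Their summed levels overlapped between the groups, at 278 to 516 CPM in CON, 15.7 to 1386 in DNP and 23.7 to 1257 in BAC. The part of these cells in the Igf2 values was not tested.

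Igfbp7, a binding protein of vessel walls, had the opposite pattern, at 21.1, 18.7 and 20.4 CPM in CON, 33.2, 34.6 and 35.9 in DNP and 16.9, 26.8 and 21.3 in BAC. The log2 fold change was 0.79 in DNP versus CON (SE 0.18, edgeR adjusted p = 0.294, DESeq2 adjusted p = 0.0244) and -0.67 in BAC versus DNP (SE 0.18, edgeR adjusted p = 0.998). Igfbp5, another IGF-binding protein, was lower in all 6 diabetic libraries (129 to 156 CPM) than in CON (183 to 219.6), with a log2 fold change of -0.47 (SE 0.12, edgeR adjusted p = 0.304, DESeq2 adjusted p = 0.0165). With region scores as covariates, the values for DNP versus CON were -0.62 for Igf2, 0.65 for Igfbp7 and -0.33 for Igfbp5. For all diabetic libraries the value of Igfbp5 with these covariates was -0.34.

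Among the receptors, 5 of 6 had a negative log2 fold change in DNP versus CON, and 3 did not overlap, 50.0% against 18.2% of all genes. They were Igf1r, Igf2r, the receptor that clears IGF-2, and Sorl1, a sorting receptor. Igf2r stood at 66.5, 99.1 and 65.0 CPM in CON and 47.4, 50.9 and 46.2 in DNP (log2 fold change -0.67, SE 0.21, edgeR adjusted p = 0.352). With region scores as covariates the difference was -0.20 for Igf2r, and for Sorl1 it went from -1.13 (SE 0.37, edgeR adjusted p = 0.363) to -0.41. Of 12 substrates and adaptors, 7 were positive and 5 negative. Sh2b2, an adaptor of the insulin receptor, was at 6.97, 5.85 and 6.67 CPM in CON and 10.6, 8.47 and 9.72 in DNP (log2 fold change 0.56, SE 0.21, edgeR adjusted p = 0.392), and at 0.25 with region scores as covariates.

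Downstream, 8 of 10 genes of PI3K, PDK1 and AKT and 12 of 13 of the mTORC1, GSK3 and AS160 branch had negative differences in DNP versus CON, with medians of -0.21 and -0.31 where the median of all genes was 0.01. In BAC versus DNP the medians were 0.05 and 0.14. Akt2, the AKT form most tied to insulin action, was at 57.4, 72.2 and 55.8 CPM in CON, 35.3, 48.3 and 44.3 in DNP and 43.4, 47.6 and 35.0 in BAC. All 6 diabetic libraries lay below CON, with a log2 fold change of -0.55 (SE 0.16, edgeR adjusted p = 0.329), and of -0.14 with region scores as covariates. Eif4ebp2, a translation repressor under mTORC1, differed by -0.36 (SE 0.13, edgeR adjusted p = 0.358), and by -0.03 with region scores as covariates.

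The FOXO factor genes other than Foxo1 included Foxo3, at 139.8, 246 and 166 CPM in CON, 98.2, 96.7 and 90.6 in DNP and 150.4, 106 and 99.0 in BAC. Every DNP library was below every CON and every BAC library, the nearest pair being DNP 1 and BAC 3. The log2 fold change was -0.95 in DNP versus CON (SE 0.24, edgeR adjusted p = 0.306, DESeq2 adjusted p = 0.0285), and -0.27 with region scores as covariates. In BAC versus DNP it was 0.32 (SE 0.24, edgeR adjusted p = 0.998).

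The 16 tested genes known as targets of FOXO factors or of fasting were evenly divided in DNP versus CON, with 8 positive and 8 negative. Txnip, an inhibitor of glucose uptake whose transcription is switched on by glucose, stood at 18.7, 19.5 and 18.1 CPM in CON, 29.4, 31.4 and 24.4 in DNP and 19.4, 17.9 and 16.8 in BAC. All DNP libraries were above all CON and all BAC libraries, and BAC lay at the CON level. It differed by a log2 fold change of 0.60 in DNP versus CON (SE 0.15, edgeR adjusted p = 0.294, DESeq2 adjusted p = 0.045) and -0.65 in BAC versus DNP (SE 0.15, edgeR adjusted p = 0.998, DESeq2 adjusted p = 0.412). With region scores as covariates these were 0.63 and -0.68. Sesn3, an inhibitor of mTORC1, was at 34.4, 180.1 and 195 CPM in CON and 25.5, 22.9 and 13.6 in DNP, with CON 1 far below the other CON libraries. Its log2 fold change was -2.72 (SE 0.58, edgeR adjusted p = 0.294, DESeq2 adjusted p = 0.000491), and -0.65 with region scores as covariates.

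**Figure D5:**
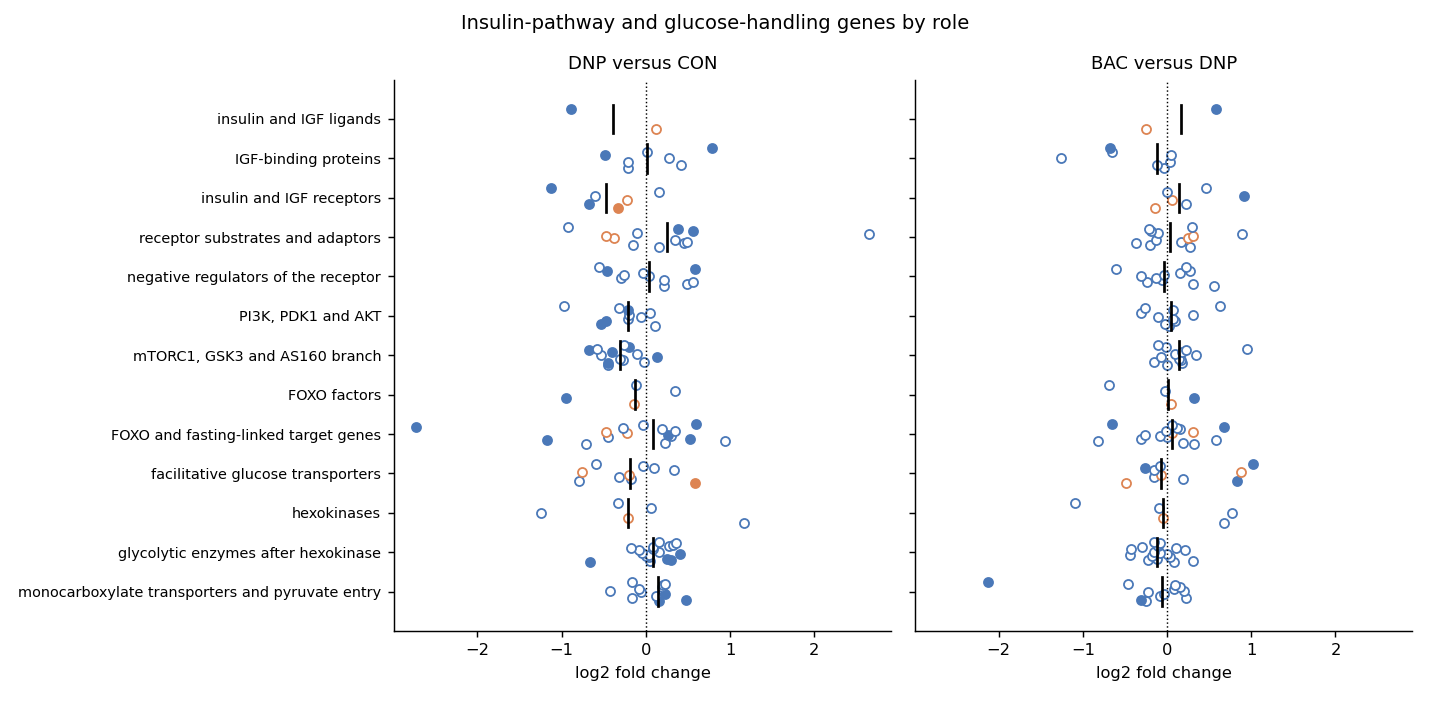
Log2 fold changes of the tested genes of 13 lists, DNP versus CON on the left and BAC versus DNP on the right. Each point is a gene, orange for the 10 genes of the set and blue for the others, filled where the libraries of the groups do not overlap, and black bars are list medians. The mTORC1, GSK3 and AS160 list has 12 of 13 points below 0 in DNP versus CON, and no gene passes the adjusted threshold in edgeR.

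After hexokinase, 14 of 18 glycolytic enzyme genes had positive differences in DNP versus CON, with a median of 0.08. In BAC versus DNP 6 of 18 were positive, with a median of -0.11. The list included Aldoa, which had only 10 to 36 counts in each library. Ldhb, the lactate dehydrogenase subunit that favours pyruvate, was at 403, 416 and 362 CPM in CON, 603, 471 and 487 in DNP and 506, 467 and 591 in BAC. All 6 diabetic libraries were above CON, with a log2 fold change of 0.40 (SE 0.14, edgeR adjusted p = 0.352), and of 0.25 with region scores as covariates. Mpc2, a subunit of the mitochondrial pyruvate carrier, was at 49.0, 46.1 and 50.1 CPM in CON, 73.7, 61.1 and 67.7 in DNP and 53.1, 49.6 and 60.2 in BAC. It differed by 0.48 in DNP versus CON (SE 0.13, edgeR adjusted p = 0.319) and by -0.31 in BAC versus DNP (SE 0.13, edgeR adjusted p = 0.998), with no overlap in either. Slc16a7, the neuronal lactate transporter MCT2, was at 10.6, 34.2 and 33.6 CPM in DNP and 5.01, 6.35 and 6.55 in BAC, but CON ranged from 13.8 to 52.7 (BAC versus DNP log2 fold change -2.13, SE 0.58, edgeR adjusted p = 0.998).

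The genes whose log2 CPM ran most like each member over the 9 libraries were named by Pearson's r among 16782 genes, as a description in which all points share their library. Slc2a1 was most like Uqcrb (r = 0.954) and Mrpl36 (0.951), genes of a respiratory chain subunit and of a mitochondrial ribosomal protein. Slc2a3 was most like Bahd1 (0.992), Irs2 like Gm5182 (0.989), Slc2a4 like Arhgef10l (0.990), Irs1 like Lcat (0.980), Igf1r like Gm30177 (0.961), Foxo1 like Gnb5 (0.959), Insr like Pcdhb13 (0.944), Hk1 like Wdr59 (0.944) and Igf1 like Hspbap1 (0.928). Between members the highest r was that of Irs1 with Slc2a4 (0.783). Both were highest in CON 2, as was Igf1r.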

How the data were processed

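Poly(A) RNA of 9 whole brains was sequenced as non-stranded paired-end reads. The authors assessed read quality with FastQC 0.11.9, filtered the reads with fastp, aligned them to GRCm38 with HISAT2 2.1.0 and deposited raw counts per gene from StringTie 1.3.3b. Bowtie2 2.3.4.1 is also named in the processing notes. The authors also deposited FPKM values, each equal to the count over a gene length and the library total, without a TMM factor. How reads mapping to several genes were counted is not given in the sources used here.

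Counts were fitted in R 4.3.3 with edgeR 4.0.16 over all 9 libraries with group as the factor, after filterByExpr with a minimum count of 10 and TMM. Genes with adjusted p under 0.05 were called. The common biological coefficient of variation was 36.5%. Pairs of libraries within a group differed by a chi-square of 14.3 to 109.5 per degree of freedom, so libraries differed by more than counting error. Each library came from a different mouse, so differences between mice, dissections and preparations cannot be told apart. The pipeline was tested on simulated data. DESeq2 1.42.0 (Wald test, its own filter), other normalisations and filters, limma 3.58.1 on log2 FPKM plus 1 or 0.1, a replicate block, region scores as covariates, subsets of the diabetic libraries and each library left out in turn were alternatives. The numbers of the libraries did not pair them.

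The 10 members and the lists were chosen with earlier results of these data known. All members were named, and from each pathway list up to 3 genes of the smallest p, among those averaging 1 CPM or more, in the comparisons of DNP with CON, of BAC with DNP or of all diabetic libraries with CON. The transporters and hexokinases could be named whole, markers beside a member, and the genes most like a member by Pearson's r. Some genes that this rule named are not reported here. Pathway genes called by DESeq2 were added to these names with the values known. Alternatives for the other pathway genes were added after seeing the data. Promoter letters were read from RefSeq (GRCm38.p6), gene coordinates from GENCODE M21.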

Additional observations from a re-analysis of the deposited data

How the results depend on the processing

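With edgeR no gene passed the adjusted threshold, whereas DESeq2 called 293 genes when DNP was set against CON, 3 for BAC against DNP, 89 in BAC versus CON and 303 in all diabetic libraries versus CON. None of the 10 members was among them. Region scores as covariates gave 1 call in each comparison with CON, and DNP 1, BAC 1 and BAC 3 alone against CON gave 529. Leaving out 1 library gave 0 to 1 calls for DNP and for BAC against CON and for all diabetic libraries. The replicate block gave 0 calls in every comparison and changed no direction of a member, with a log2 fold change of Insr of -0.24 in DNP versus CON. The numbers share no stated source, and same-numbered libraries had deviation correlations from -0.561 to 0.552. Of 991 pairs of a gene result and an alternative, 941 kept direction and side of the threshold, 7 passed it under DESeq2 and 43 changed direction, and the causes were not tested. Depth limits Slc2a4 most among the members (18 to 96 counts).

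With region scores as covariates the sign changed for Irs1 in DNP versus CON (0.45), from DNP to BAC (-0.0895) and all diabetic libraries (0.40), for Slc2a4 in DNP versus CON (1.10) and all diabetic libraries (1.37), for Insr (0.11) and Igf1 (0.34) in all diabetic libraries, for Slc2a3 in BAC versus DNP (0.0783) and for Hk2 in DNP versus CON (0.56). For all diabetic libraries, DNP 1, BAC 1 and BAC 3 alone gave 0.0394 for Irs1, 0.0219 for Irs2 and 0.19 for Slc2a4, and DNP 2, DNP 3 and BAC 2 alone gave 0.0331 for Insr, 0.10 for Igf1 and 0.17 for Foxo1. Igf1 in all diabetic libraries was 0.0347 with upper-quartile factors, 0.043 with library size only, 0.0128 on log2 FPKM plus 1 and 0.0183 on log2 FPKM plus 0.1, and Slc2a4 there was 0.0201 on log2 FPKM plus 0.1.

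Leaving out each library gave ranges that crossed 0 for Insr in BAC versus DNP (-0.15 to 0.36), Irs1 in DNP versus CON (-0.61 to 0.0098) and all diabetic libraries (-0.48 to 0.14), Igf1 in DNP versus CON (-0.23 to 0.31), BAC versus DNP (-0.44 to 0.0897) and all diabetic libraries (-0.18 to 0.10), Foxo1 in the same 3 comparisons (-0.58 to 0.0625, -0.30 to 0.48 and -0.34 to 0.0095), Slc2a3 in BAC versus DNP (-0.23 to 0.019), Slc2a4 in DNP versus CON (-1.38 to 0.40) and all diabetic libraries (-0.72 to 0.84) and Hk1 in BAC versus DNP (-0.12 to 0.0179).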

Other observations

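Negative regulators of the insulin receptor, a group not described above, were divided in DNP versus CON, with 6 of 11 positive and 5 negative and a median log2 fold change of 0.04. Grb10, an adaptor that dampens the receptor, was at 52.7, 56.7 and 41.2 CPM in CON, 101, 61.2 and 50.2 in DNP and 82.2, 64.8 and 116 in BAC. Its highest libraries were BAC 3, DNP 1 and BAC 1, those with the most Hoxb8 counts. Irs4, a receptor substrate of the hypothalamus and other sites, was highest in BAC 3 (21.04 CPM) and DNP 1 (11.4 CPM) and stood at 0.214 to 1.33 CPM in CON.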
